A study of Mus musculus with 15 samples.

Results

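The NADPH oxidase of phagocytes was followed here through the mRNA of 6 of its subunits, Cybb, Cyba, Ncf1, Ncf4, Rac1 and Rac2, in mouse bone marrow-derived macrophages (BMDMs). The members were found by matching Ensembl gene identifiers to these symbols, which gave 6 of the 53465 genes of the count table. All 6 passed the filter on low counts, together with 13938 genes in all. BMDMs were grown from marrow for 7 days with M-CSF at 20 ng/ml, and 5 groups of 3 libraries were sequenced after 24 h. The control group received no further cytokine. The other groups received IL-4 at 10 ng/ml, IL-4 with IL-6 at 40 ng/ml (IL-4+IL-6), IL-13 at 40 ng/ml, or IL-13 with the same dose of IL-6 (IL-6+IL-13). No group received IL-6 alone. The labels of these libraries give no strain, genotype or age, and do not say whether replicates came from separate animals, so the p-values measure only the spread between these samples.

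The phagocyte oxidase moves electrons from NADPH across the membrane to oxygen and so makes superoxide, which macrophages and neutrophils use against engulfed microbes and as a signal. Its catalytic core is a pair of membrane proteins, gp91phox (encoded by Cybb) and p22phox (Cyba). In resting cells the organizer p47phox (Ncf1) and its partner p40phox (Ncf4) stay in the cytosol, and on activation they move to the membrane core together with a Rac GTPase in its GTP-bound form. Rac2 is the Rac protein of blood cells, whereas Rac1 is made in most cell types and also drives membrane ruffling. IL-4 and IL-13 share a receptor chain and signal through STAT6, and IL-6 signals through gp130 and STAT3. The comparisons below ask how each of IL-4 and IL-13 altered these mRNAs, and what the addition of IL-6 changed.

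Levels are given as normalised CPM, a gene's count relative to the library total after TMM scaling, with the SD of 3 libraries. Library totals ran from 17001352 to 18918686 counts, and TMM factors from 0.897 to 1.05. All 8 macrophage markers were present in every library, and their summed level was 18935 to 21114 normalised CPM in the controls, 14309 to 14780 with IL-4, 10900 to 12704 with IL-4+IL-6, 17051 to 19800 with IL-13 and 13928 to 14820 with IL-6+IL-13. Most of each sum was Lyz2, at 14924 ± 964 in the controls, 9698 ± 317 with IL-4 and 6852 ± 1046 with IL-4+IL-6. Lyz2 was at 12745 ± 1531 with IL-13 and 8692 ± 354 with IL-6+IL-13, so the sums mainly follow that gene. Single markers moved both ways, with 5 of 8 called lower and 1 higher with IL-4 over control, among them Mertk, a receptor for dying cells, which was 17.2-fold lower, and 5 lower and 3 higher when IL-6 was added to IL-4. In the IL-13 background 2 were called lower and 3 higher with IL-6. Over all tested genes, 35.9% were called lower and 32.1% higher with IL-4 over control. With IL-6 these shares were 18.7% lower and 20.7% higher in the IL-4 background, and 13.5% and 12.1% in the IL-13 background. Neutrophil and precursor markers were present in the control libraries, where 11 genes summed to 500.3 to 591.3 normalised CPM, while the sum was 1.70 to 3.16 in the 12 cytokine-treated libraries. Ly6g, which marks mature neutrophils, was at most 0.224 normalised CPM in the controls and at 0 in every treated library, whereas Ngp, a granule protein of neutrophil precursors, was at 130.4 ± 12.2 (SD, n = 3) in the controls. Monocyte markers summed to 120.2 to 122.3 in the controls and 4.36 to 23.5 elsewhere, and B cell markers to 10.2 to 10.8 and 0.567 to 1.55. Of 4 eosinophil markers, 3 (Epx, Prg2 and Siglecf) were called lower in every treated group than in the controls and Ccr3, a chemokine receptor, was called higher. Prg2, an eosinophil granule protein, was at 14.6 ± 1.19 in the controls and at most 0.221 in a treated library, Siglecf at 14.7 ± 1.48 and 0.828 to 4.70 in the group means, and Ccr3 at 1.12 ± 0.199 and 18.2 to 71.4. T cell markers were at most 0.224. Neutrophils, monocytes, eosinophils and B cells also hold this oxidase. The neutrophil, monocyte and B cell markers and these eosinophil markers moved with each comparison over control, and their part in it was not tested. In bulk RNA, fewer cells of a type and less RNA per cell cannot be told apart. The replicates spread more in the IL-4+IL-6 and IL-13 groups, with biological coefficients of variation of 14.8% and 10.9%, than in the control, IL-4 and IL-6+IL-13 groups at 4.48%, 4.54% and 7.38%. Within them IL-4+IL-6 replicate 2 and IL-13 replicate 1 stood apart. The mean chi-square per gene between counts of replicates was 26.3 and 46.6 for the former and 22.3 and 17.1 for the latter, against 7.55 and 3.93 for the other pair of each group. No pair of replicates came below 2.68, so none agreed within sampling noise.

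**Figure D1:**
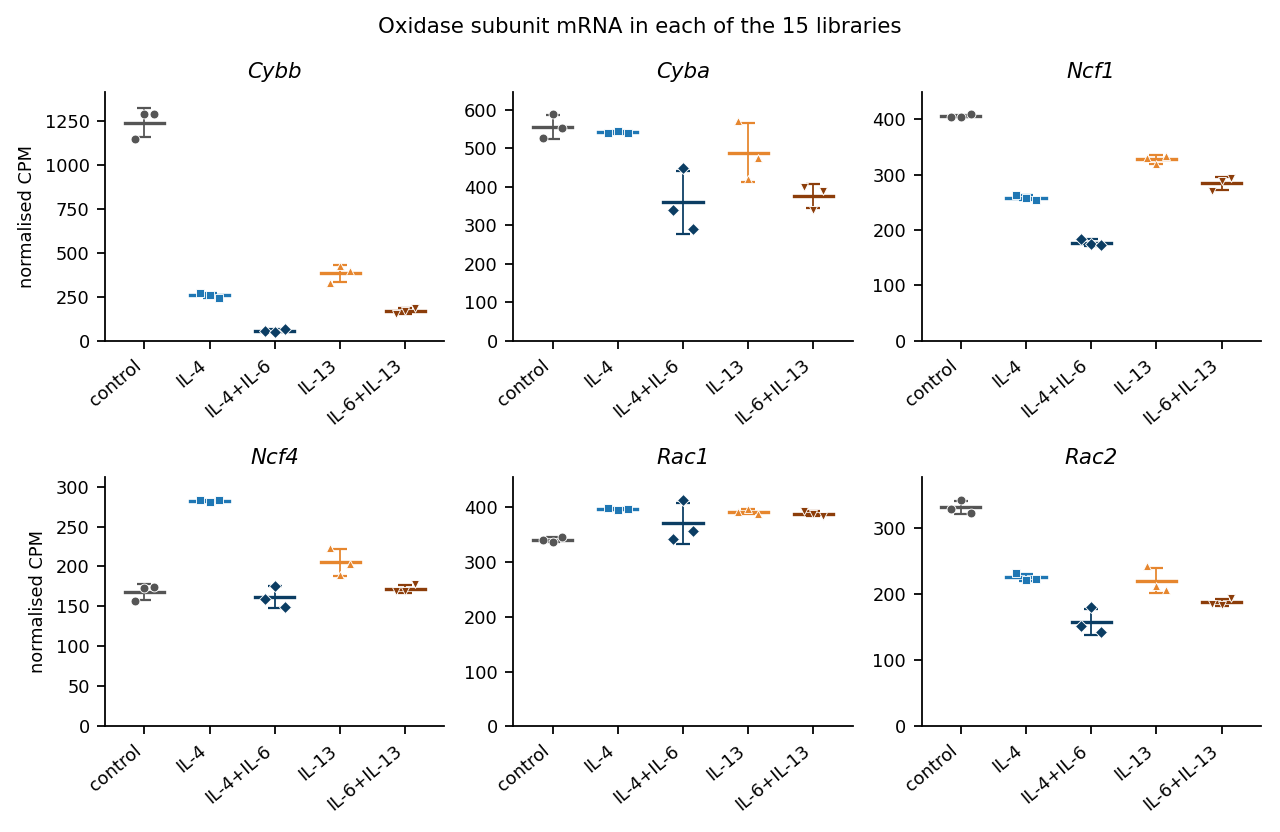
Level of each oxidase subunit mRNA (normalised CPM, linear axes from 0) in every library of the 5 groups. Points are libraries, horizontal bars are group means and error bars are SDs (n = 3). Cybb was highest in the controls and lowest with IL-4+IL-6, Ncf4 was highest with IL-4, and Rac1 stayed between 336 and 414 in all libraries.

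Cybb (ENSMUSG00000015340; GRCm38, chrX:9435252-9487771, minus strand), the catalytic subunit, moved most of the 6. The control libraries held 1147, 1289 and 1289 normalised CPM, the IL-4 libraries 275, 259 and 246, and the IL-13 libraries 328, 425 and 397. With IL-6 added, levels were 55.1, 52.2 and 66.7 in the IL-4+IL-6 group and 151, 172 and 184 in the IL-6+IL-13 group. No 2 groups overlapped, and the order from high to low was control, IL-13, IL-4, IL-6+IL-13 and IL-4+IL-6, with every neighbouring pair past the test. Relative to control, Cybb fell by 2.26 on the log2 scale with IL-4 (SE 0.107, 4.78-fold lower, adjusted p = 1.02e-11) and by 1.69 with IL-13 (SE 0.105, 3.24-fold lower, adjusted p = 4.12e-10). The addition of IL-6 lowered it again, by 2.16 over IL-4 alone (SE 0.110, 4.48-fold, adjusted p = 4.83e-11) and by 1.18 over IL-13 alone (SE 0.105, 2.27-fold, adjusted p = 1.30e-07). The IL-4+IL-6 libraries thereby stood 21.4-fold below control (log2 fold change -4.42, SE 0.119, adjusted p = 3.50e-15), and the IL-6+IL-13 libraries 7.35-fold below it (log2 fold change -2.88, SE 0.110, adjusted p = 5.61e-13). The neutrophil markers, summed to 500.3 to 591.3 in the controls and at most 3.16 with any cytokine, moved with the steps from control. With the control libraries left out of the fit, the change of Cybb with IL-6 was -2.18 over IL-4 and -1.19 over IL-13. The sum of the 3 monocyte markers was 19.4 to 20.3 with IL-4 and 4.36 to 5.70 with IL-4+IL-6, and 19.9 to 23.5 with IL-13 and 13.5 to 16.9 with IL-6+IL-13. Of the eosinophil markers, Siglecf was called lower and Ccr3 higher in both IL-6 comparisons, and Epx and Prg2 were not called. The summed macrophage markers also moved with both comparisons, and most of that sum was Lyz2. Lyz2 went from 9698 to 6852 normalised CPM in the IL-4 background and from 12745 to 8692 in the IL-13 background. Csf1r was also called lower in both comparisons, while Adgre1 and Fcgr1 were called higher in both. The part of all these markers was not tested.

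**Figure D2:**
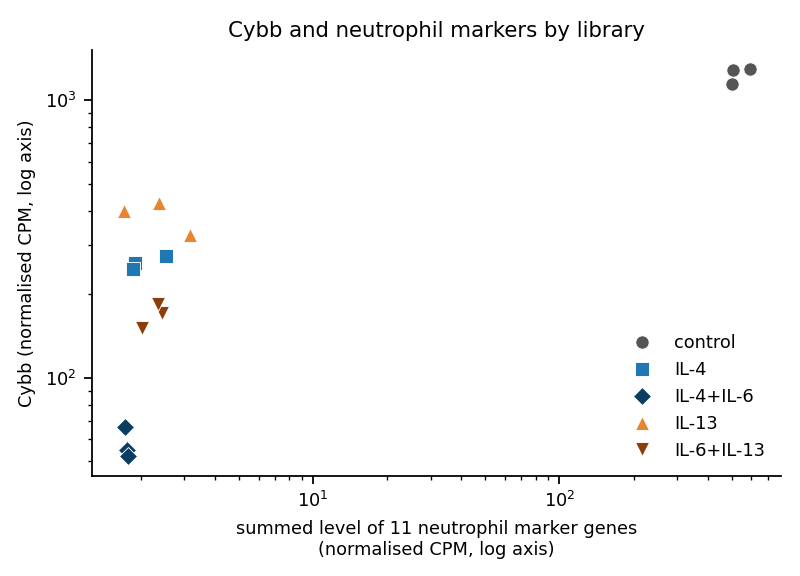
Cybb against the summed level of 11 neutrophil marker genes in each of the 15 libraries (normalised CPM, both axes logarithmic). The 3 control libraries lie at marker sums of 500.3 to 591.3, and the 12 treated libraries lie at 1.70 to 3.16 while Cybb in them runs from 52.2 to 425.

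The region before the start of Cybb is shown because Cybb had the largest falls of the 6, beside that of Ncf1, which fell in the same comparisons. A promoter entry from RefSeq (GRCm38.p6) was matched for 3 of the 6 members (Cybb, Cyba and Ncf1), and the 250 bases before the start were searched on both strands for 4 motifs. These were GAAA repeated after any 2 bases, as interferon regulatory factors bind it, TTC and GAA with 3 or with 4 bases between, which are spacings of the STAT site, and GAGGAA, a core of Ets factors such as PU.1. The sequences below, at chrX:9469325-9469574 and chr5:134229626-134229875 (both minus strand), run 5′ to 3′ and end at the base before the start, with matches in capitals. The start used for Cybb is that of transcript Cybb-201 (chrX:9435252-9469324), and it lies inside the gene span given above because another transcript, Cybb-205, begins at 9487771.
Cybb: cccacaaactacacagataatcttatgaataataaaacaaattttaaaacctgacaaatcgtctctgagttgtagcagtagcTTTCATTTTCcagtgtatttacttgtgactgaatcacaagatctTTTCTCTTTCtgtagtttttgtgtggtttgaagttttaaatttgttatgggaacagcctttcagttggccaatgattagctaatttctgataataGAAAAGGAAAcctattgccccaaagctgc
Ncf1: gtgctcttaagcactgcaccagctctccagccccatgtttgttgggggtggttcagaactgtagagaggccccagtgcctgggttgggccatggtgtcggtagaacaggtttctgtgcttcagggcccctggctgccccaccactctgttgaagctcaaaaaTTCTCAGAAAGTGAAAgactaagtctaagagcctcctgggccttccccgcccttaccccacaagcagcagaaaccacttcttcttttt
The Cybb window held 3 matches of the GAAA repeat, ending 159, 115 and 20 bases before the start, the first 2 of them on the opposite strand, and no match of the others. The Ncf1 window held TTCTCAGAA, which is TTC and GAA 3 bases apart on both strands, overlapping the GAAA repeat GAAAGTGAAA. The Cyba window held no match of the 4. Among 32851 promoter windows of this length, 2.98% held the GAAA repeat, 7.02% TTC and GAA 3 bases apart, 5.85% the same 4 bases apart and 23.3% GAGGAA. These are matches of letters, not sites shown to be bound.

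Cyba (ENSMUSG00000006519; chr8:122424776-122432930, minus strand) encodes the membrane partner that stabilizes gp91phox, and it did not follow Cybb in the groups without IL-6. The control libraries held 526, 588 and 551 normalised CPM and the IL-4 libraries 539, 545 and 539, while the IL-13 libraries held 571, 420 and 474. These 3 groups overlapped. The change over control was -0.04 with IL-4 (95% interval -0.30 to 0.23, adjusted p = 0.814) and -0.19 with IL-13 (-0.45 to 0.08, adjusted p = 0.220). With IL-6 the levels were lower, at 340, 449 and 290 for IL-4+IL-6 and at 399, 340 and 390 for IL-6+IL-13. Neither set of values overlapped that of the same cytokine without IL-6. Cyba fell by 0.59 over IL-4 alone (SE 0.128, 1.5-fold lower, adjusted p = 0.00125) and by 0.38 over IL-13 alone (SE 0.127, 1.30-fold lower, adjusted p = 0.0379). The second of these calls was lost without IL-13 replicate 1 (-0.26, adjusted p = 0.143), IL-13 replicate 3 (-0.40, adjusted p = 0.0607), IL-6+IL-13 replicate 2 (-0.31, adjusted p = 0.137) or IL-6+IL-13 replicate 3 (-0.41, adjusted p = 0.0558), and when the control libraries were left out (-0.39, adjusted p = 0.0534). Over control, the fall was 0.63 with IL-4+IL-6 (adjusted p = 3.08e-04) and 0.56 with IL-6+IL-13 (adjusted p = 0.001), where the 2 combined groups did not differ from each other (-0.07, 95% interval -0.33 to 0.20).

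Ncf1 (ENSMUSG00000015950; chr5:134220053-134229625, minus strand), the organizer that carries the other cytosolic subunits to the membrane, was lower in every treated group than in the controls. The control libraries held 405, 405 and 409 normalised CPM, the IL-13 libraries 330, 320 and 334, and the IL-6+IL-13 libraries 271, 289 and 294. Levels were 264, 259 and 254 in the IL-4 group, and 184, 175 and 173 with IL-4+IL-6. No 2 groups overlapped, although IL-6+IL-13 and IL-4, neighbours in this order, did not pass the test (adjusted p = 0.0630). Ncf1 fell by 0.65 over control with IL-4 (SE 0.0536, 1.57-fold lower, adjusted p = 1.19e-08) and by 0.31 with IL-13 (SE 0.0534, 1.24-fold lower, adjusted p = 8.98e-05). The addition of IL-6 lowered it by 0.55 over IL-4 alone (SE 0.0539, 1.46-fold, adjusted p = 2.60e-07) and by 0.20 over IL-13 alone (SE 0.0535, 1.15-fold, adjusted p = 0.00838), the latter not called without a filter on low counts (-0.19, adjusted p = 0.0989). The IL-4+IL-6 group stood 2.29-fold below control and the IL-6+IL-13 group 1.43-fold below it. Ncf1 shares 408 exon bases with Gtf2ird2 on the opposite strand, a gene at 10.6 to 21.2 normalised CPM in the group means, and the strand setting of the counts is not given in the sources used here.

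Ncf4 (ENSMUSG00000071715; chr15:78244801-78262580, plus strand) encodes the subunit that binds the lipid phosphatidylinositol 3-phosphate on phagosomes and holds the oxidase active there. It rose with IL-4 and IL-13, against the direction of Cybb and Ncf1. The IL-4 libraries held 283, 281 and 283 normalised CPM and the IL-13 libraries 223, 189 and 204, against 156, 173 and 174 in the controls. Both groups lay wholly above control. The rise was 0.75 with IL-4 (SE 0.0735, 1.68-fold, adjusted p = 1.07e-07) and 0.29 with IL-13 (SE 0.0734, 1.22-fold, adjusted p = 0.00271). With IL-6 the levels were 160, 176 and 149 for IL-4+IL-6 and 169, 170 and 178 for IL-6+IL-13, and both combined groups overlapped control. The fall with IL-6 was 0.81 over IL-4 alone (SE 0.0737, 1.75-fold, adjusted p = 9.72e-08) and 0.25 over IL-13 alone (SE 0.0734, 1.19-fold, adjusted p = 0.0168), and the latter call was lost without IL-13 replicate 1 (-0.20, adjusted p = 0.0595). Over control, the combined groups gave -0.06 (95% interval -0.21 to 0.10) and 0.04 (-0.12 to 0.19). With library totals as the scaling, which set the median of all genes at -0.19, the first was -0.21 and called lower (adjusted p = 0.00818).

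Rac1 (ENSMUSG00000001847; chr5:143503634-143528036, minus strand), the widely made Rac GTPase, kept within the range of 336 to 414 normalised CPM. The control libraries held 340, 336 and 345 normalised CPM. The IL-4 libraries held 398, 394 and 397, the IL-13 libraries 391, 397 and 389, and the IL-6+IL-13 libraries 394, 388 and 385. The IL-4+IL-6 libraries ran more widely, at 343, 414 and 357, and overlapped both control and IL-4. Rac1 rose by 0.22 over control with IL-4 (SE 0.0626, 1.16-fold, adjusted p = 0.00522) and by 0.20 with IL-13 (SE 0.0626, 1.15-fold, adjusted p = 0.00988). It did not pass the test when IL-6 was added to IL-4 (-0.10, 95% interval -0.23 to 0.04) or to IL-13 (-0.01, -0.15 to 0.12), and no neighbours in its order of group levels passed the test. With IL-6 added to IL-4 it was called lower without IL-4+IL-6 replicate 2 (-0.19, adjusted p = 0.00366), and under both other scalings, given below. Without that library IL-4+IL-6 was also called lower than IL-6+IL-13 (-0.15, adjusted p = 0.0282), and without IL-4+IL-6 replicate 1 it was called higher than control (0.19, adjusted p = 0.0122). Rac1 and Daglb lie tail to tail on opposite strands and share 2309 exon bases, so that 50.3% of the 50-base windows of Rac1 transcripts also occur, on the other strand, in Daglb. The deposited counts of Daglb were 173 ± 2.36 normalised CPM in the controls, 266 ± 10.4 with IL-4, 184 ± 16.9 with IL-13, 77 ± 6.76 with IL-4+IL-6 and 85.5 ± 5.13 with IL-6+IL-13 (SD, n = 3). Without the strand setting of the counts, reads of the 2 genes cannot be told apart there.

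Rac2 (ENSMUSG00000033220; chr15:78559167-78572783, minus strand), the Rac GTPase of blood cells, moved with Cybb and Ncf1. The control libraries held 329, 343 and 323 normalised CPM, the IL-4 libraries 232, 221 and 223, and the IL-13 libraries 243, 213 and 207. All 6 libraries with IL-4 or IL-13 alone lay below all controls. The fall was 0.56 with IL-4 (SE 0.0798, 1.47-fold, adjusted p = 1.02e-05) and 0.59 with IL-13 (SE 0.0798, 1.5-fold, adjusted p = 7.00e-06), and the IL-4 and IL-13 groups did not differ (0.03, 95% interval -0.14 to 0.20). With IL-6 added, levels were 152, 180 and 142 (IL-4+IL-6) and 185, 184 and 194 (IL-6+IL-13). Neither group overlapped its counterpart without IL-6. IL-6 lowered Rac2 by 0.51 over IL-4 alone (SE 0.0803, 1.43-fold, adjusted p = 5.51e-05) and by 0.23 over IL-13 alone (SE 0.0800, 1.18-fold, adjusted p = 0.0392). The latter call was lost without IL-13 replicate 1 (-0.17, adjusted p = 0.129), IL-6+IL-13 replicate 1 (-0.24, adjusted p = 0.0844) or IL-6+IL-13 replicate 2 (-0.23, adjusted p = 0.1), and without the control libraries (-0.24, adjusted p = 0.0520).

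**Figure D3:**
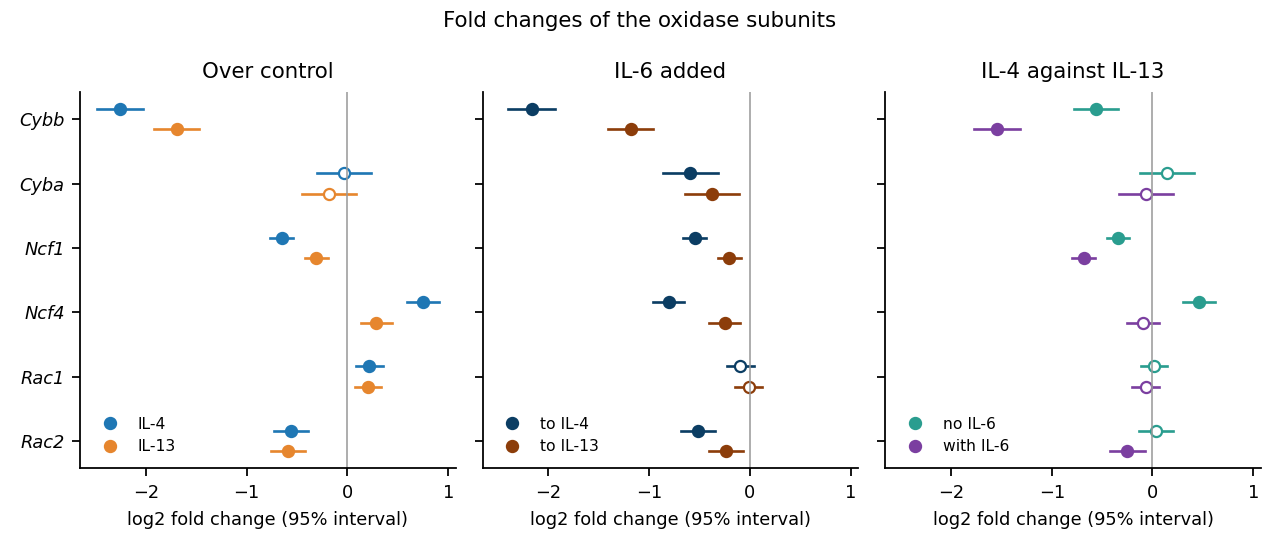
Log2 fold change of the 6 subunits with 95% intervals from the fit of all 15 libraries, for IL-4 and IL-13 over control (left), IL-6 added to IL-4 or to IL-13 (middle), and IL-4 against IL-13 without and with IL-6 (right). Filled points passed an adjusted p of 0.05 and open points did not. In the middle panel 5 members lie below 0 in both backgrounds, and the intervals of Rac1 include 0.

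Over control, 3 of 6 members (Cybb, Ncf1 and Rac2) were lower with IL-4, where 35.9% of all tested genes were called lower, and 2 (Ncf4 and Rac1) were higher, where 32.1% were called higher. With IL-13 the same 3 were lower, against 31.1% of all genes, and the same 2 were higher, against 29%. These comparisons share the control libraries, which also carried the neutrophil, monocyte, eosinophil and B cell transcripts given above. Calls over control were thus common among all genes, and the number of members called is not set apart from that background. The median log2 change of the members was -0.30 with IL-4 and -0.25 with IL-13, beside -0.05 and -0.02 over all genes tested. IL-4+IL-6 over control called 4 members lower (Cybb, Cyba, Ncf1 and Rac2), where 37.5% of genes were called lower. IL-6+IL-13 over control called the same 4 lower, against 32.1% of genes, and Rac1 higher (0.19, SE 0.0626, adjusted p = 0.0135), against 31.9%. That Rac1 call was lost with upper-quartile factors (0.14, adjusted p = 0.0543) and with scaling by library totals (0.09, adjusted p = 0.129).

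The addition of IL-6 lowered 5 of 6 members (Cybb, Cyba, Ncf1, Ncf4 and Rac2) in the IL-4 background, where 18.7% of all tested genes were called lower. The same 5 were called lower in the IL-13 background, where the share was 13.5%, and none was called higher in either. The median log2 change of the members was -0.57 with IL-4 and -0.24 with IL-13, beside 0.04 and 0.01 over all genes tested. No control library enters these contrasts, and the 2 contrasts share no library. The shares called higher over all genes were 20.7% and 12.1%. The count of 5 in the IL-13 background fell to 2 (Cybb and Ncf1) without IL-13 replicate 1 and to 3 without IL-6+IL-13 replicate 2 or without the controls, while the direction of all 5 was kept. Upper-quartile factors moved the share of higher among the genes called from 52.6% to 39.0% in the IL-4 background, and scaling by library totals moved it from 47.3% to 35.3% in the IL-13 background. The 5 members kept their calls and directions under both scalings, while Rac1 was called lower with IL-6 in the IL-4 background by upper-quartile factors (-0.18, adjusted p = 0.0246) and by library totals (-0.20, adjusted p = 0.00611).

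The fall with IL-6 was deeper in the IL-4 background for 3 members by a test of the difference itself, where 4.42% of all genes were called in that direction. The IL-6 effect with IL-4 minus that with IL-13 was -0.98 for Cybb (SE 0.148, adjusted p = 3.36e-04), -0.56 for Ncf4 (SE 0.104, adjusted p = 0.00209) and -0.34 for Ncf1 (SE 0.0758, adjusted p = 0.00812). For Cyba the difference was -0.21 (95% interval -0.59 to 0.17), for Rac1 -0.08 (-0.27 to 0.10) and for Rac2 -0.28 (-0.52 to -0.04, adjusted p = 0.178), and none of these passed. The Rac2 difference was called without IL-4+IL-6 replicate 2 (-0.38, adjusted p = 0.00966) or without IL-13 replicate 1 (-0.37, adjusted p = 0.0388). The dose of IL-6 was the same in both backgrounds, whereas IL-4 was given at 10 ng/ml and IL-13 at 40 ng/ml.

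At those unequal doses, the IL-4 and IL-13 libraries differed in 3 members. Cybb was lower with IL-4 (-0.56, SE 0.103, adjusted p = 0.00122), as was Ncf1 (-0.34, SE 0.0535, adjusted p = 2.76e-04), where 7.61% of all genes were called lower. Ncf4 was higher with IL-4 (0.46, SE 0.0731, adjusted p = 3.04e-04), where 5.16% were called higher. These shares rest on 1779 calls, which became 2915 without IL-13 replicate 1, and 1167, 1128, 1149 and 1088 without IL-4 replicates 2 or 3 or IL-13 replicates 2 or 3. With IL-6 present, Cybb (-1.54, SE 0.108, adjusted p = 1.07e-08), Ncf1 (-0.68, SE 0.0540, adjusted p = 4.21e-08) and Rac2 (-0.25, SE 0.0803, adjusted p = 0.0261) had lower levels in the IL-4+IL-6 group than in the IL-6+IL-13 group, where 15.5% of genes were called lower. The Rac2 call was lost in a fit of only these 2 groups (adjusted p = 0.0697), and without IL-4+IL-6 replicate 1 (adjusted p = 0.0736), IL-4+IL-6 replicate 3 (adjusted p = 0.0820) or IL-6+IL-13 replicate 3 (adjusted p = 0.0710). Ncf4 no longer differed between the 2 combined groups (-0.09, 95% interval -0.25 to 0.06).

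Levels of the 6 genes can be set beside each other only per length, for which the deposited FPKM was used. Cyba was the most abundant of the 6 in every group, with 558 ± 26.6 FPKM in the controls and 325 ± 58.0 with IL-4+IL-6 (SD, n = 3). Cybb came next in the controls at 223 ± 13.8 FPKM and was the least abundant of the 6 in all 4 treated groups, at 45.3 ± 2.60 with IL-4, 67.7 ± 9.54 with IL-13, 28.4 ± 2.87 with IL-6+IL-13 and 9.46 ± 1.62 with IL-4+IL-6. The balance between the mRNAs of the membrane partners therefore moved, and no protein was measured in these libraries. The ratio of Cyba to Cybb FPKM was 2.50 ± 0.0961 in the controls, 7.31 ± 2.18 with IL-13, 11.7 ± 0.644 with IL-4, 12.6 ± 1.96 with IL-6+IL-13 and 35.7 ± 11.9 with IL-4+IL-6. For the mRNAs of the cytosolic subunits, the ratio of Ncf4 to Ncf1 was 0.749 ± 0.0430 in the controls, 1.98 ± 0.0404 with IL-4, 1.65 ± 0.148 with IL-4+IL-6, 1.13 ± 0.0809 with IL-13 and 1.1 ± 0.0307 with IL-6+IL-13. Among the GTPases, the ratio of Rac2 to Rac1 was above 1 in the controls alone, at 1.44 ± 0.0626, and 0.842 ± 0.0179 with IL-4, 0.833 ± 0.0741 with IL-13, 0.715 ± 0.0267 with IL-6+IL-13 and 0.630 ± 0.0349 with IL-4+IL-6. Reads shared by Rac1 and Daglb cannot be told apart without the strand setting, so the level of Rac1 and this ratio carry that limit. The summed FPKM of the 6 was 1176 ± 42.3 in the controls, 949 ± 9.10 with IL-4, 908 ± 71.5 with IL-13, 686 ± 24.6 with IL-6+IL-13 and 582 ± 64.3 with IL-4+IL-6. These ratios and sums are descriptions with no test, and the marker values of the controls stand beside them as well.

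**Figure D4:**
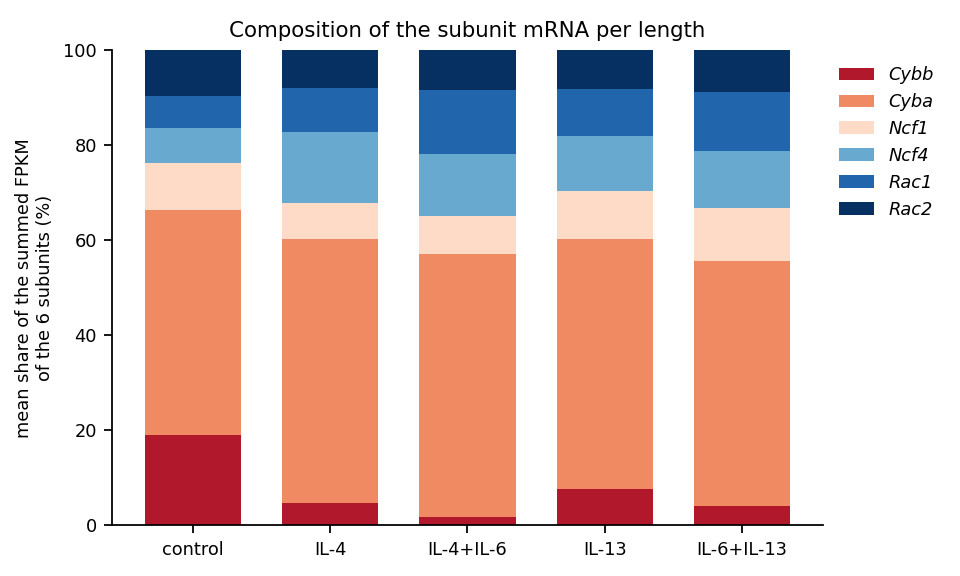
Mean share of each subunit in the summed FPKM of the 6 (%, n = 3 libraries per group). The share of Cybb was 19% in the controls and 1.66% with IL-4+IL-6, while Cyba held 47.4% to 55.5% in all groups.

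Genes that act with the oxidase were counted from lists of known partners. The shares over all tested genes to set beside these counts are 18.7% lower and 20.7% higher with IL-6 in the IL-4 background, and 13.5% lower and 12.1% higher in the IL-13 background. Of 10 oxidase partners, all tested, 5 fell (Nrros, Hvcn1, Prkcd, Prkcb and Pak1) and 4 rose (Cybc1, Prkca, Pak2 and Prdx6) when IL-6 was added to IL-4, and 4 fell (Hvcn1, Prkcd, Prkcb and Pak1) and 2 rose (Cybc1 and Pak2) when it was added to IL-13, with list medians of -0.13 and 0.05. Prkcd and Prkcb, protein kinases C that phosphorylate p47phox, were among those that fell. Prkcd fell by 1.40 with IL-4 as background (SE 0.0685, adjusted p = 3.12e-11), from 519 ± 26.8 to 197 ± 14.7 normalised CPM, and by 0.81 with IL-13 (SE 0.0678, adjusted p = 6.56e-08), from 358 ± 7.54 to 204 ± 13.7. Prkcb fell by 1.38 (SE 0.132, adjusted p = 1.76e-07) and 1.08 (SE 0.126, adjusted p = 3.57e-06). Hvcn1, the proton channel that offsets the charge moved by the oxidase, stood at 69.0 ± 1.1 normalised CPM in the controls, 20.3 ± 1.38 with IL-4 and 13.4 ± 0.643 with IL-4+IL-6. The members that rose with IL-6 in both backgrounds were Cybc1, a chaperone of the gp91phox and p22phox pair, by 0.33 and 0.28 (adjusted p = 2.82e-04 and 0.00225), and the kinase Pak2. List genes whose changes were smaller than 2-fold were named after their values were seen.

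Beside the same shares over all genes, of 9 exchange factors that load Rac with GTP, 6 fell and 2 rose (Vav1 and Tiam1) with IL-6 in the IL-4 background, and 4 fell (Vav2, Dock2, Dock5 and Dock8) and 2 rose (Vav1 and Vav3) in the IL-13 background, with medians of -0.63 and -0.39. Dock2, the main Rac exchange factor of blood cells, went from 650.2 ± 46.4 to 288 ± 48.8 normalised CPM in the IL-4 background (-1.18, SE 0.102, adjusted p = 5.27e-08), and Dock8 fell by 1.25 (SE 0.132, adjusted p = 6.22e-07). Of 7 Rac inhibitors, 3 fell (Arhgap15, Arhgap25 and Chn2) and 1 rose (Bcr) with IL-4 as background, and 4 fell (the same 3 and Abr) and 2 rose (Arhgdib and Bcr) with IL-13. Arhgap25, a GTPase-activating protein for Rac in phagocytes, fell by 2.26 (SE 0.0662, adjusted p = 5.90e-14) and 1.39 (SE 0.0642, adjusted p = 3.27e-11), and the inhibitor Chn2 by 1.88 with IL-4 as background (SE 0.140, adjusted p = 7.20e-09). Activators and inhibitors of Rac were thus both among the genes that fell. Of 8 tested genes that remove superoxide or peroxide, 4 fell (Sod1, Cat, Gpx1 and Prdx1) and 2 rose (Sod2 and Prdx3) in each background. In the IL-4 background Sod1, the cytosolic superoxide dismutase, fell by 1.12 (SE 0.132, adjusted p = 2.20e-06), Gpx1 by 1.15 (SE 0.106, adjusted p = 1.13e-07) and Prdx1 by 1.08 (SE 0.132, adjusted p = 3.50e-06).

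Of 7 transcription factors known to act on Cybb, 2 fell (Irf8 and Cebpa) and 1 rose (Nfkb1) with IL-6 in the IL-4 background, and 1 fell (Cebpa) in the IL-13 background. The shares over all genes were 18.7% lower and 20.7% higher, and 13.5% lower, so these counts are not set apart from that background. Irf8 went from 161 ± 6.05 to 125 ± 2.51 normalised CPM with IL-4 as background (-0.36, SE 0.0549, adjusted p = 4.14e-05) and was 192 ± 3.15 and 195 ± 5.38 in the IL-13 and IL-6+IL-13 libraries (0.02, SE 0.0544, adjusted p = 0.862). The control level of Irf8 was 263 ± 8.75. The other NADPH oxidases and their regulators were nearly absent: 8 of 9 did not pass the filter, and Noxo1, the single one tested, held at most 19 counts in a library. Nox4, Noxa1, Duox2 and Duoxa2 had no count in any library, which allows up to 0.176 CPM (3 counts of the smallest library). Among these lists, 5 of the 30 calls with IL-6 in the IL-4 background were lost under some alternative. Prkca and Tiam1 were lost with library totals (adjusted p = 0.0721 and 0.0627) and with only the 2 groups in the fit (adjusted p = 0.0884 and 0.0585), and Prkca also with upper-quartile factors (adjusted p = 0.0594) and without the controls (adjusted p = 0.0548). With 1 library left out, Prkca was lost for IL-4 replicate 2 (adjusted p = 0.179) or IL-4+IL-6 replicate 3 (adjusted p = 0.131), and Tiam1 for IL-4 replicate 3 or IL-4+IL-6 replicates 1 or 3 (adjusted p from 0.0583 to 0.0931). Prdx6 was lost with either other scaling (adjusted p = 0.0955 and 0.0713), with only the 2 groups (adjusted p = 0.104), and without IL-4 replicates 1 or 3 or IL-4+IL-6 replicate 2 (adjusted p from 0.0713 to 0.147). Tiam2 was lost with only the 2 groups (adjusted p = 0.0529) and without IL-4 replicates 2 or 3 or IL-4+IL-6 replicates 1 or 2 (adjusted p from 0.0518 to 0.114). The rise of Nfkb1 was the least firm, lost with either scaling, with no filter, in each fit of fewer groups and without any library of these 2 groups but IL-4+IL-6 replicate 2 (adjusted p from 0.0792 to 0.408).

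With IL-6 in the IL-13 background 5 of the 25 calls were lost under some alternative. Arhgdib was lost with either other scaling (adjusted p = 0.0685 and 0.0607), without the controls (adjusted p = 0.0570), and without IL-13 replicates 2 or 3 or IL-6+IL-13 replicates 1 or 3 (adjusted p from 0.0711 to 0.145). Cebpa was lost with only the 2 groups (adjusted p = 0.0549) and without IL-13 replicates 1 or 3 or IL-6+IL-13 replicate 2 (adjusted p from 0.0803 to 0.112). Abr was lost without IL-13 replicates 2 or 3 or IL-6+IL-13 replicates 1 or 3 (adjusted p from 0.0542 to 0.117). Bcr was lost without IL-13 replicate 1 or IL-6+IL-13 replicate 2 (adjusted p = 0.0551 and 0.0523), and Prdx3 without IL-13 replicates 2 or 3 or IL-6+IL-13 replicate 1 (adjusted p from 0.0546 to 0.0708). Every one of these genes kept its direction.

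**Figure D5:**
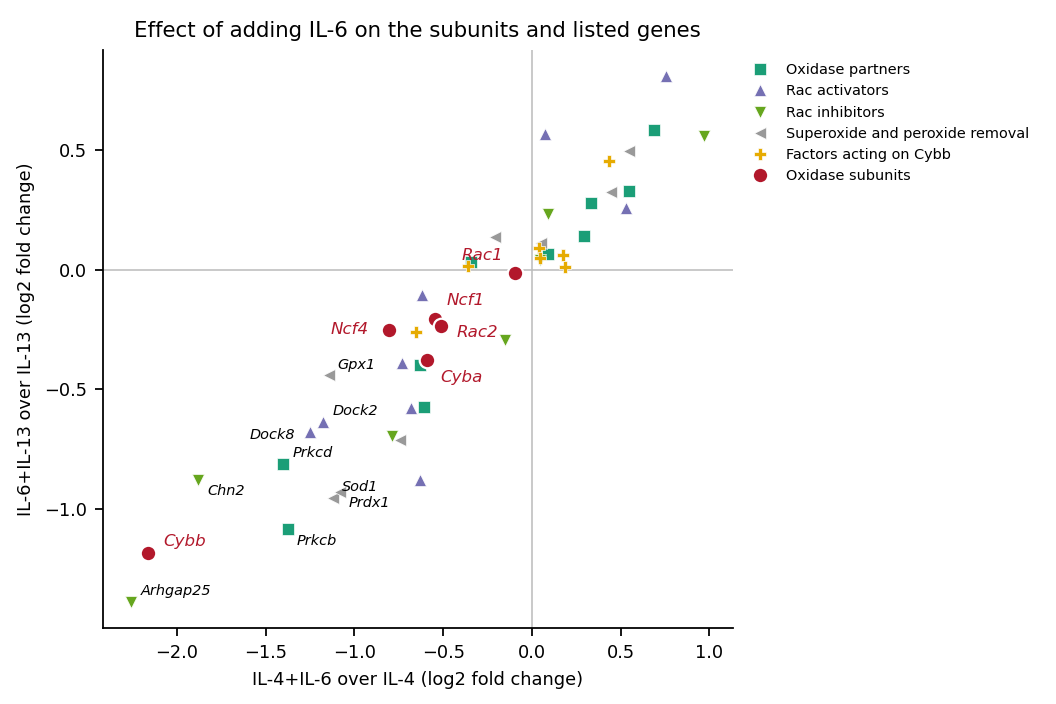
Log2 fold change on addition of IL-6 in the IL-4 background (x axis) and in the IL-13 background (y axis) for the 6 subunits and the tested genes of the lists, leaving out Noxo1 for its low counts. Each point is 1 gene, coloured by list, and the 2 axes share no library. Cybb and Arhgap25 lie at the lower left, at -2.16 and -1.18 and at -2.26 and -1.39.

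The genes whose levels over the 15 libraries were most like each member are given as a description, by Pearson's r of log2 normalised CPM among genes with a mean of at least 10. The libraries fall into 5 groups that share their treatment, so r mostly reflects the group means. For Cybb these were Ptafr, the receptor for platelet-activating factor (r = 0.995), Tbc1d8 (0.993) and Neurl3 (0.993). Ptafr went from 354 ± 13.9 normalised CPM in the controls to 51.7 ± 4.95 with IL-4 and 11.6 ± 1.54 with IL-4+IL-6. For Ncf1 they were Apobec1 (0.994), which edits cytidines in RNA, Arhgap27 (0.991) and Slc16a10 (0.989), and for Rac2 Pon2 (0.984) and Sqstm1 (0.981). For Cyba they were the copper chaperone Atox1 (0.972), the lipid peroxidase Gpx4 (0.965) and Bin3 (0.956). For Ncf4 they included the inflammasome adaptor Pycard (0.963) and Tkt (0.957), the transketolase of the pentose phosphate pathway. For Rac1 they were Fancl (0.939), Pgk1 (0.932) and Spcs3 (0.915).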

How the data were processed

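RNA of 15 BMDM libraries was sequenced and processed by a service company. Submitters' notes name GRCm38, CASAVA, Bowtie2 2.2.3, HISAT2 2.1.0, TopHat2 and DESeq2, with no roles. The counting tool, annotation and strand setting are not given in the sources used here. The authors deposited raw counts per gene and, per library, FPKM (count per gene length and library total). Counts were tested with edgeR 4.0.16 (R 4.3.3): filterByExpr at a minimum count of 10, TMM factors, glmQLFit on all 15 libraries, glmQLFTest and Benjamini-Hochberg adjustment over the 13938 genes tested. A gene was called at an adjusted p under 0.05. FPKM was described without a test. The scripts were tested on simulated data. Genes of the lists were named where called with a log2 change of at least 1 in size, other names being given where a count was small. The members and lists were chosen with earlier results of these data known, and some genes of the lists are not reported here. Coordinates are from GENCODE vM21. Alternatives were DESeq2 1.42.0, other scalings, filters and library sets, and the replicate block. Intervals cover the spread between libraries. Count depth was 17001352 to 18918686 per library, so counting limited precision for genes of few counts. For these members, replicate spread and counting noise were not compared.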

Additional observations from a re-analysis of the deposited data

Results flagged for a closer look

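The effect of IL-6 differed between the IL-4 and the IL-13 background for 3 subunits by a test of the difference in the edgeR fit. The IL-6 effect with IL-4 minus that with IL-13 was -0.98 on the log2 scale for Cybb, -0.34 for Ncf1 and -0.56 for Ncf4. For each of them all 3 libraries of IL-4+IL-6 lay below all 3 of IL-4, and all 3 of IL-6+IL-13 below all 3 of IL-13. Cyba and Rac2 were separated in the same way, so this separation does not bear on the difference. The doses of IL-4 and IL-13 differed, and their part in the difference was not tested.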

How the results depend on the processing

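Under the alternatives no log2 change of a member with a call reversed its direction, and calls of the 6 members were kept for all values with DESeq2, with a filter of 1 CPM in 3 libraries, and with only the 9 libraries of the control group and the groups given IL-4. With upper-quartile factors Rac1 gave -0.18 on adding IL-6 to IL-4 (called) and 0.14 for IL-6+IL-13 over control (not called). With library totals Rac1 gave -0.20 and 0.093 for the same comparisons (called and not called), and Ncf4 gave -0.21 for IL-4+IL-6 over control (called), where this scaling set the median of all genes at -0.19. The share of higher among calls of the IL-6 difference went from 42.2% to 31.7% with upper-quartile factors. With no filter, Ncf1 gave -0.19 for IL-6+IL-13 over IL-13 (not called). On the deposited FPKM the order of group levels changed for Ncf4 and Rac1. Ncf4 with IL-6+IL-13 came below control (83.3 against 86.7 FPKM), as did Rac1 with IL-4+IL-6 (77.7 against 79.1). Rac1 was also higher with IL-13 than with IL-4 on that scale. None of these pairs differed by the test of counts. With only the 2 groups compared, 2900 genes were called for IL-4+IL-6 over IL-6+IL-13, against 4368, and Rac2 gave -0.27 (not called). Without the control libraries, an alternative chosen after seeing the data, 3 members were called for IL-6+IL-13 over IL-13 and Cyba (-0.39) and Rac2 (-0.24) were not. The replicate numbers did not pair the samples: deviations of 30 same-number pairs gave r of -0.28 to 0.16, 3 of them over 0.1. With the replicate block, 3 members were called for IL-6+IL-13 over IL-13, with Cyba at -0.37 and Rac2 at -0.23 not called, and no other call of a member changed.

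Leaving out 1 library at a time, 1088 to 2915 genes were called for IL-4 over IL-13, against 1779. For IL-6+IL-13 over IL-13, 2 to 5 members were called, with Cyba at -0.48 to -0.26, Ncf4 at -0.32 to -0.20 and Rac2 at -0.29 to -0.17. Rac1 ran from 0.067 to 0.19 for IL-4+IL-6 over control, from -0.19 to -0.068 over IL-4 and from -0.15 to -0.024 over IL-6+IL-13, each called without 1 library. Rac2 ran from -0.35 to -0.19 for IL-4+IL-6 over IL-6+IL-13 and from -0.38 to -0.22 for the difference of the IL-6 effects. The cause of these shifts was not tested. The members held at least 885 counts in every library, with 3 libraries a group, and replicate spread and counting noise were not compared for them. Depth limits the other NADPH oxidases.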
